A study of Mus musculus with 15 samples.

Results

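Livers of Txnip knockout mice (KO) were compared with livers of wild-type mice (WT) after 8 weeks of high-fat diet, as 5 bulk RNA libraries of each genotype. The members were the 10 libraries whose titles and genotype labels name KO or WT, of 15 libraries in the series. The other 5 libraries carry the TXNIP C247S knock-in and entered only the shared estimate of the spread. Each library was total liver RNA extracted with a column kit. All mice of both groups had the diet, so no value here separates the diet from the genotype. The labels give neither the deleted exons nor a promoter, Cre driver, sex, age or substrain, and they do not tie the libraries to separate animals. The p-values therefore rest on library-to-library spread, which may be technical. The title numbers ran from 1176 to 1288 in KO and from 3116 to 3121 in WT. What these numbers stand for is not stated, and anything that follows them cannot be told apart from genotype.

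TXNIP is an alpha-arrestin that binds reduced thioredoxin and promotes the internalization of glucose transporters. In liver its transcription follows glucose through the factor encoded by Mlxipl, and loss of TXNIP is known for changes in fuel use, triglyceride and insulin response. The genes below are ordered by these roles: fat handling, sterol and bile acid, detoxification, sex-biased secretion, clock, stress and inflammation, glucose, and cell type markers.

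Depth ranged from 18047577 to 23379940 estimated counts over the 15 libraries, enough to test 13916 genes. Values are CPM (counts scaled to library size by TMM), fold changes are log2 values of KO minus WT with their standard error (SE), and a gene was called at an adjusted p below 0.05 in edgeR's quasi-likelihood test. Of the genes tested, 356 were higher in KO (2.56%) and 583 lower (4.19%), 6.75% in all, and the median log2 difference of all genes was -0.01. The 5 KO and 5 WT libraries did not overlap in 9.6% of genes, KO lying above in 4.51% and below in 5.09%. The first principal component of the 10 libraries held 30.4% of the variance and separated KO (10.21 to 52.39) from WT (-39.37 to -15.19). WT 1 (36.49) and KO 5 (-21.77) lay far from the rest of their groups on the second (17.6%). The count of 939 called genes was 581 without both, and it fell to 521 without KO 2, 523 without WT 4, 546 without KO 5, 572 without KO 3 and 611 without KO 4.

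**Figure D1:**
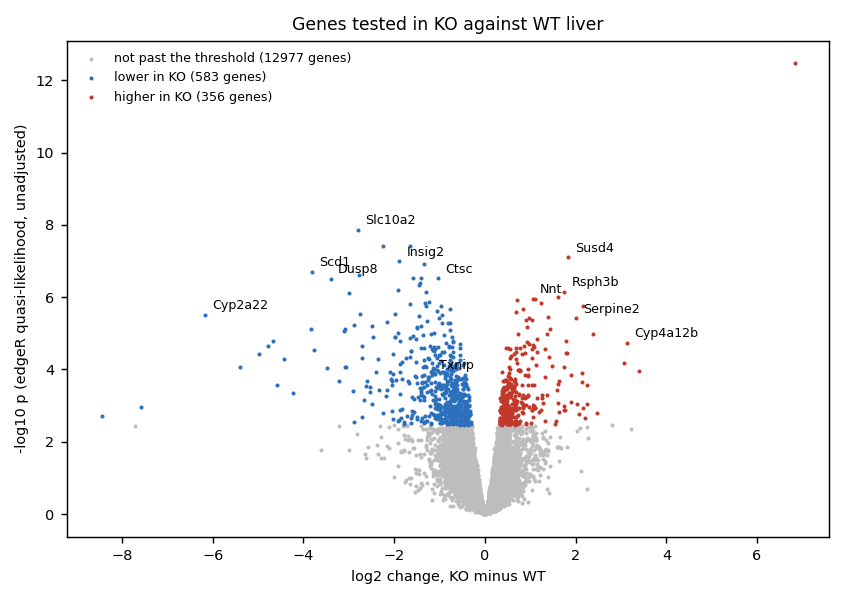
Each point is 1 of the 13916 genes, with the log2 change of KO minus WT on the horizontal axis and -log10 of the unadjusted edgeR p on the vertical axis. Blue points are the 583 genes lower in KO, red points the 356 higher and grey points the 12977 not called, and the red point at the upper right is the histone pseudogene Hist1h2al.

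Another measure moved with genotype. A clock index was taken as the mean log2 CPM of negative-arm and output clock genes less that of clock activator genes. The index was 0.87 to 1.55 in WT and 1.51 to 2.12 in KO. With this index as a covariate 175 genes were called, of which 153 were among the 939. Of 98 called genes that the rule for named genes picked, 71 kept their call whichever library was left out, and 27 kept it in every fit that tested them, the clock fit included. Those 27 were Scd1, Fabp4, Apoa4, Hsd17b13, Insig2, Slc10a2, Susd4, Cyp4a12b, Cyp2a22, Cyp2c39, Abcd2, Serpine2, Obp2a, Rsph3b, Igfals, Dusp8, Ier5, Cdkn1a, Ccnd1, Il1rn, Ctsc, Slc1a4, Slc1a2, Pgm2, Nnt, Pecam1 and Gpnmb. The other 71 lost their call in at least 1 fit, most often in the clock fit. Among the 27, Cyp2a22, Gpnmb, Cyp2c39 and Dusp8 reached at most 0.466, 0.655, 0.907 and 1.01 CPM in KO, close to or below the count filter. Such genes depend on the libraries where they are higher to be tested, so keeping a call is no support for them. The index followed genotype closely, since the groups met only between 1.51 and 1.55, and it includes Dbp and Ciart, which were called themselves. That fit therefore cannot tell the index from genotype, and a call lost or kept in it does not show what the clock accounts for. How far the clock index accounts for any difference was not tested.

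Txnip itself was lower in KO but was not absent. It stood at 180.4, 196, 319.9, 218 and 197 CPM in WT 1 to WT 5 and 70.9, 124, 108, 74.2 and 119 CPM in KO 1 to KO 5, so the groups did not overlap and the KO mean was 44.5% of the WT mean. The log2 difference was -1.17, SE 0.24, edgeR adjusted p = 0.00886, and a two-sided exact permutation test gave p = 0.00794, the lowest value possible with these group sizes. Both coding transcripts, Txnip-202 with 397 amino acids and Txnip-201 with 396, kept counts in every KO library, 835 to 1449 and 549 to 1190. Together these transcripts hold nearly all of the gene's counts, so the lower Txnip total was not the loss of 1 form. With the clock index as a covariate Txnip was no longer called (-1.13, edgeR adjusted p = 0.1049). Estimated counts per transcript do not show which exons the reads cover.

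The other alpha-arrestins and the thioredoxin system moved little. Of 23 tested members 1 was called higher and 2 lower, Txnip among them, beside 2.56% and 4.19% of all genes. The median log2 difference was 0. Arrdc4, the closest relative of Txnip and, like it, a target of the Mlxipl product, stood at 9.09 CPM in WT and 9.06 in KO (log2 difference -0.00, SE 0.20, edgeR adjusted p = 0.993). Thioredoxin (Txn1, log2 difference -0.10), thioredoxin reductase 1 (Txnrd1, -0.01) and peroxiredoxin 1 (Prdx1, 0.04) did not pass the test. Txnrd2, the mitochondrial reductase, and Srxn1, the sulfiredoxin, were called, but Txnrd2 lost its call without WT 2, WT 4, KO 2 or KO 4 (edgeR adjusted p up to 0.0828) and Srxn1 when any 1 library other than WT 1 was left out (edgeR adjusted p up to 0.111).

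Among genes that bring fatty acids into the hepatocyte and charge them with coenzyme A, 5 of 15 tested members fell and 1 rose, beside 4.19% and 2.56% of all genes, although the list's median log2 difference was 0. Acsl5, which charges fatty acids on the outer mitochondrial and reticulum membranes, stood at 274, 332, 348, 338 and 250.2 CPM in WT 1 to WT 5 and 154, 200.2, 186, 197 and 169 CPM in KO 1 to KO 5. All 5 KO libraries lay below all 5 WT libraries, and Acsl5 fell by 0.77 on the log2 scale (SE 0.15, edgeR adjusted p = 0.00739). Acsl3, which feeds nascent lipid droplets, fell by 0.88 (SE 0.19, edgeR adjusted p = 0.0121). Acsl1, which supplies acyl-CoA for both synthesis and oxidation, stood at 937.7 CPM in WT and 936.0 in KO. Fabp1, the main fatty acid binding protein of hepatocytes, stood at 2404 and 2764 CPM, and neither of these passed the test. The other members that fell were the binding protein Fabp4, the uptake receptor Cd36 and Acsl4. Slc27a1, the transporter that rose, lost its call without KO 5 (edgeR adjusted p = 0.0666), and Acsl4 when any 1 library other than WT 3, WT 5 or KO 1 was left out (edgeR adjusted p up to 0.0805).

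Of 17 members of the fatty acid synthesis list 5 fell and none rose, beside 4.19% and 2.56% of all genes, with a median of -0.51. With the clock index covariate, which follows genotype, edgeR called 0 of the 17. Of 16 desaturases and elongases 2 fell and none rose, with a median of -0.38. Scd1, the main hepatic stearoyl-CoA desaturase, stood at 4399, 4613, 2801, 4034 and 2879 CPM in WT 1 to WT 5 and 318, 228, 245, 435 and 101 CPM in KO 1 to KO 5. Every KO library lay far below every WT library, and Scd1 fell by 3.82 (SE 0.46, edgeR adjusted p = 0.000332). Fasn, the fatty acid synthase, stood at 207, 386, 225, 194 and 309 CPM in WT 1 to WT 5 and 87.5, 126, 132, 95.7 and 132 CPM in KO 1 to KO 5, without overlap. It fell by 1.21 (SE 0.27, edgeR adjusted p = 0.0151). Of the regulators, Srebf1 and Mlxipl did not pass the threshold. Srebf1 stood at 338 CPM in WT and 219.7 in KO (log2 difference -0.62, edgeR adjusted p = 0.105), and all KO libraries lay below all WT libraries. Mlxipl stood at 146 CPM in WT and 210.3 in KO, with overlap (edgeR adjusted p = 0.288). The count of 5 was 2 without WT 2 or KO 2 and 3 without WT 3, WT 4, KO 1, KO 3 or KO 5. Me1, the malic enzyme, lost its call without WT 2 or KO 2 (edgeR adjusted p up to 0.0523). The pentose phosphate enzyme Pgd lost its call when any 1 library other than WT 1 was left out (edgeR adjusted p up to 0.0838), and Thrsp, a regulator of lipogenesis, when any 1 library other than WT 5 or KO 4 was left out (edgeR adjusted p up to 0.116).

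Of 18 tested members of the droplet coat and lipolysis list 4 fell and none rose, beside 4.19% and 2.56% of all genes. Their median was -0.17. Plin2, which coats hepatocyte lipid droplets, stood at 342, 632, 844, 848 and 680.1 CPM in WT 1 to WT 5 and 208, 380.4, 279, 384 and 319.7 CPM in KO 1 to KO 5. WT 1 lay inside the KO range, and the other 4 WT libraries lay above it. Plin2 fell by 1.09 (SE 0.22, edgeR adjusted p = 0.00876). Cidec, which drives droplet fusion, fell by 3.77 and its relative Cidea by 4.59 to a mean of 0.139 CPM. In both genes WT 1 again lay inside the KO range. Cidec was 8.85 CPM in WT 1 and 4.59 to 9.22 in KO. Cidea was 0.103 CPM in WT 1 and 0.0459 to 0.207 in KO, so the size of its fall rests on very few counts. Plin3, Plin4 and Plin5 stood at log2 differences of -0.52, -1.56 and -0.58 and did not pass the test, and the lipase Pnpla2 (-0.12) and its cofactor Abhd5 (-0.20) did not either. In triglyceride assembly 2 of 13 members fell. Gpam, the mitochondrial glycerol-3-phosphate acyltransferase that opens the pathway, stood at 166, 248, 192, 216 and 213 CPM in WT 1 to WT 5 and 130.3, 104, 136, 114 and 129.6 CPM in KO 1 to KO 5, without overlap, and fell by 0.75 (SE 0.15, edgeR adjusted p = 0.00853). Mogat1, a monoacylglycerol acyltransferase, lost its call when any 1 library other than WT 1 was left out (edgeR adjusted p up to 0.106).

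Of 25 genes that burn fatty acids (the oxidation and ketogenesis list) 2 fell and none rose, beside 4.19% and 2.56% of all genes. The list's median log2 difference was -0.15. Cpt1a, the gate of mitochondrial import, stood at 525.7 CPM in WT and 460.0 in KO and did not pass the test. Pdk4, which shuts pyruvate dehydrogenase when fat is burned, fell by 3.83 (SE 0.61, edgeR adjusted p = 0.00181). Acot2, a mitochondrial thioesterase, lost its call when any 1 library other than WT 1 or WT 2 was left out (edgeR adjusted p up to 0.117). The count of 2 was 4 without WT 1. Ppara, the regulator of this set, stood at 109 CPM in WT and 90.0 in KO (log2 difference -0.28, SE 0.21, edgeR adjusted p = 0.461). Among 20 apolipoprotein and assembly genes 2 fell, Apoa4 and Apoc2, while Apob (-0.19), Mttp (-0.25) and Apoe (0.10) did not pass. Apoc2, the cofactor of lipoprotein lipase, lost its call without WT 3, WT 4, KO 1, KO 3 or KO 5 (edgeR adjusted p up to 0.0611).

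**Figure D2:**
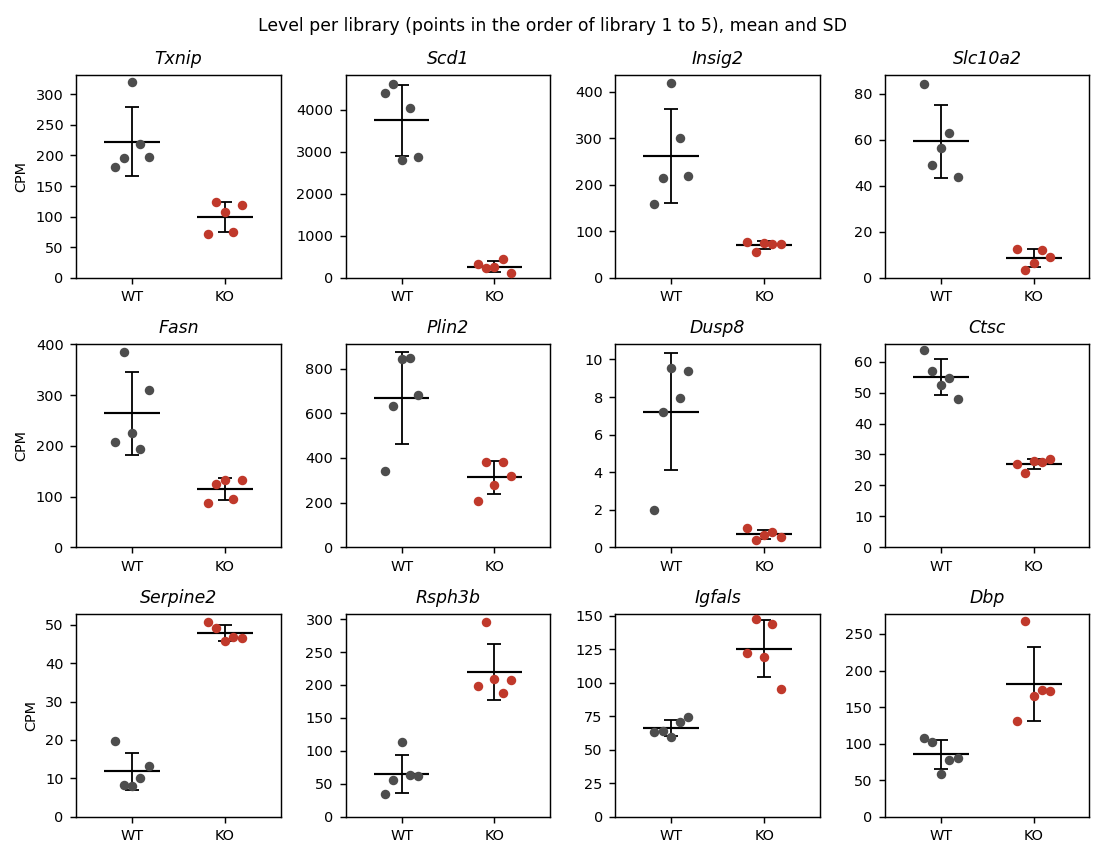
Each panel shows the CPM of 1 gene in the 5 WT libraries (grey) and the 5 KO libraries (red), in library order, with the mean and SD as bars. Txnip, Scd1, Insig2, Slc10a2, Fasn, Dusp8 and Ctsc were lower in KO and Serpine2, Rsph3b, Igfals and Dbp higher, all without overlap, and in Plin2 WT 1 lay inside the KO range.

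In sterol metabolism the lowest p belonged to a regulator, Insig2. Insig2 encodes a membrane protein that holds the sterol sensor in the endoplasmic reticulum, and its liver form is known to be lowered by insulin. It stood at 159.7, 215, 419, 302 and 219 CPM in WT 1 to WT 5 and 77.9, 56.3, 75.6, 72.2 and 71.6 CPM in KO 1 to KO 5. The KO libraries lay within a narrow band below every WT library, and Insig2 fell by 1.89 (SE 0.22, edgeR adjusted p = 0.000238). Its transcripts Insig2-201 (220.7 CPM in WT, 61.37 in KO) and Insig2-202 (37.77 and 7.006) were both called, at -1.85 and -2.43. Of the 25 genes of cholesterol synthesis and uptake 2 fell and 1 rose, beside 4.19% and 2.56% of all genes. Of the 25, 22 had a negative log2 difference and the median was -0.42. Among them Hmgcs1 (-0.82) and Sqle (-0.63) did not pass the test. With the clock index as a covariate 5 of the list were called lower. Dhcr7, a late enzyme of the pathway, lost its call when any 1 library other than WT 1 or KO 5 was left out (edgeR adjusted p up to 0.119), and Tm7sf2 without WT 3, WT 4, KO 2, KO 4 or KO 5 (edgeR adjusted p up to 0.0637).

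Bile acid genes showed 1 large fall. Slc10a2, the apical sodium-dependent bile acid transporter, which in liver is a cholangiocyte gene, stood at 84.2, 48.8, 56.3, 62.7 and 43.8 CPM in WT 1 to WT 5 and 12.5, 3.28, 6.38, 12 and 8.79 CPM in KO 1 to KO 5. The highest KO library lay well below the lowest WT library, and Slc10a2 fell by 2.79 (SE 0.28, edgeR adjusted p = 9.49e-05). Of the 11 tested cholangiocyte markers none was called by edgeR (median -0.20), with 3 at an unadjusted p below 0.05, and DESeq2 called 0 higher and 1 lower. Krt19, Krt7, Sox9 and Epcam stood at log2 differences of 0.22, 0.02, -0.17 and -0.29. Their summed level was 350.7 to 888.7 CPM in WT and 317.2 to 493.7 in KO, most of it Krt8 and Krt18, which hepatocytes also express. Of the 22 bile acid genes 1 rose and 2 fell (median 0.10), beside 2.56% and 4.19% of all genes. Cyp7a1, the rate-limiting enzyme of bile acid synthesis, stood at 75.31 CPM in WT and 184.2 in KO and did not pass (log2 difference 1.29, edgeR adjusted p = 0.0764), nor did Cyp8b1 (0.71). Cyp7b1, an oxysterol hydroxylase of the alternative pathway, rose by 2.15 (SE 0.44, edgeR adjusted p = 0.00818). Slco1a4, an organic anion transporter, lost its call when any 1 library other than WT 1 or KO 1 was left out (edgeR adjusted p up to 0.102), and the count higher was 3 without WT 1.

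More detoxification genes were called lower than higher. Among all genes tested 4.19% fell and 2.56% rose. Of 22 tested xenobiotic P450 genes 10 fell and 2 rose, with a median of -0.54. Of 24 conjugation, carboxylesterase and receptor genes 4 fell and 1 rose, with a median of -0.16. The P450 genes summed to 10050 to 16160 CPM in WT and 14540 to 18050 in KO, with overlap. The conjugation list summed to 6769 to 8649 and 7372 to 8831 CPM, also with overlap. Cyp2a22, Cyp2b13, Cyp2a4 and Cyp2b9, among the falls, and Cyp2d9, among the rises, are also counted in the sex-biased lists below. Cyp2c39 stood at 1.76, 3.35, 3.48, 4.27 and 2.49 CPM in WT 1 to WT 5 and 0.907, 0.462, 0.183, 0.622 and 0.559 CPM in KO 1 to KO 5, without overlap, and fell by 2.49 (SE 0.39, edgeR adjusted p = 0.00169). The KO levels of Cyp2c39 were close to or below the count filter, so its call is no support. Ces2e, a carboxylesterase that cleaves esters, stood at 162, 270.0, 286, 311 and 218 CPM in WT 1 to WT 5 and 118, 132, 109, 148 and 112 CPM in KO 1 to KO 5. It fell by 1.01 (SE 0.19, edgeR adjusted p = 0.00431), and Ugt1a5, a glucuronosyltransferase that shares its last exons with the other Ugt1a genes, by 1.38 (SE 0.30, edgeR adjusted p = 0.0118). Members of these families are near copies of each other, so kallisto may have divided their reads unevenly. The members that fell belonged to the Cyp2a, Cyp2b, Cyp2c and Cyp3a families, and Cyp2a5 of the first of these rose by 1.11 (edgeR adjusted p = 0.0285), a call it lost without WT 2, WT 5, KO 1, KO 2 or KO 4. Cyp1a2 (0.79), Cyp2e1 (0.47) and the reductase Por (0.22) had positive differences that did not pass. The receptors that induce Cyp2b and Cyp3a genes did not pass either: Nr1i2, the pregnane X receptor, stood at 131.7 and 113.2 CPM and Nr1i3, the constitutive androstane receptor, at 244.6 and 350.1. Cyp2b10, the classical target of the latter, stood at 23.21 CPM in WT and 4.133 in KO. Cyp2b9, a member of the female-biased list, stood at 174.1 CPM in WT and 23.62 in KO. Cyp2b9 lost its call when any 1 library other than WT 1 or KO 1 was left out (edgeR adjusted p up to 0.102), and Cyp2b10 when any 1 library other than WT 1, WT 2, WT 5 or KO 1 was left out (edgeR adjusted p up to 0.0722). Ces3b, the conjugation list's rise, lost its call when any 1 library other than WT 1 was left out.

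Of 24 targets of the antioxidant factor NRF2 and glutathione enzymes 6 fell and none rose, beside 4.19% and 2.56% of all genes. Their median was -0.39. Gstm3, a glutathione transferase, fell by 1.82 (SE 0.38, edgeR adjusted p = 0.0103) and kept its call whichever library was left out. Gclc, Gclm and Gsr, which make and recycle glutathione, stood at log2 differences of -0.50, -0.06 and 0.01 and did not pass the test. Nfe2l2, which encodes NRF2, did not pass at -0.28. The count of 6 was 2 without WT 3 or KO 2 and 3 without WT 2, WT 4, KO 1 or KO 3, and Nqo1, Gstm2, Ugdh and Hmox1 were the members that lost calls (edgeR adjusted p up to 0.097, 0.0876, 0.109 and 0.0826).

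Male-biased and female-biased liver genes that passed the test were called in opposite directions. In rodents the pulsatile growth hormone of males keeps male-biased genes on and female-biased genes off, through the factor STAT5B and the repressor BCL6, while CUX2 is a repressor of male-biased genes in female liver. Of 23 tested male-biased genes 9 rose and none fell (median 1.11), and of 14 tested female-biased genes 7 fell and none rose (median -0.96). Among all genes 2.56% rose and 4.19% fell. Of the 7, Cyp2a22, Cyp2b13 and Hao2 had KO means of 0.322, 0.327 and 0.101 CPM, close to or below the count filter. They were tested through the libraries where they are higher, so their calls are no support. Cyp2a4 was also low in KO, at 0.823 CPM. The female-biased list held 22 genes, and those not tested were too low. Selenbp2 was the 1 male-biased gene with a negative difference (-2.01, edgeR adjusted p = 0.0508). The male-biased count was 4 to 5 without WT 2, WT 3, WT 4, KO 2, KO 3, KO 4 or KO 5 and 14 without WT 1. The sum of the male-biased genes, mostly major urinary proteins, was 11640 to 41410 CPM in WT and 42890 to 67520 in KO. The female-biased genes summed to 404.5 to 1098 CPM in WT and 394.5 to 505.9 in KO, with overlap. Abcd2, a peroxisomal transporter of very-long-chain fatty acids and a female-biased gene, stood at 23.2, 26.1, 18.9, 25.9 and 15.7 CPM in WT 1 to WT 5 and 6.4, 6.29, 5.92, 6.12 and 5.29 CPM in KO 1 to KO 5, without overlap, and fell by 1.87 (SE 0.32, edgeR adjusted p = 0.00286).

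Members of the growth hormone and IGF axis were called in both directions. Of 17 tested members 2 rose and 2 fell, beside 2.56% and 4.19% of all genes, with a median of 0.28. Igfals, which encodes the acid-labile subunit that holds IGF1 in the circulation and is a growth hormone target in hepatocytes, stood at 63, 63.7, 59.2, 70.8 and 74.1 CPM in WT 1 to WT 5 and 122, 147, 119, 144 and 95.5 CPM in KO 1 to KO 5. Every KO library exceeded every WT library, and Igfals rose by 0.92 (SE 0.16, edgeR adjusted p = 0.00289). Igfbp3, which joins the same ternary complex and is made by non-parenchymal cells, stood at 25.6, 19.5, 20.4, 21.3 and 15.4 CPM in WT 1 to WT 5 and 10.9, 12.8, 12.1, 14.9 and 11.3 CPM in KO 1 to KO 5 and fell by 0.72 (SE 0.16, edgeR adjusted p = 0.0148). Bcl6, the repressor named above, had means of 15.50 CPM in WT and 52.72 in KO, but its KO libraries were uneven. They stood at 32.7, 40.4, 95.3, 10.7 and 84.5 CPM in KO 1 to KO 5, and KO 4 lay inside the WT range of 9.22 to 22.1. Bcl6 lost its call without WT 3, WT 4, KO 3 or KO 5 (edgeR adjusted p up to 0.0878). Igf1 (0.14), Ghr (-0.04), Stat5b (-0.43) and Cux2 (-0.31) did not pass. The Igfals promoter holds a match to the letters TTCNNNGAA, the core that STAT factors bind, 236 bases before 1 of its 3 listed starts. It is shown from RefSeq (GRCm38.p6, chr17:24877594-24877666, plus strand) with the match in capitals, because Igfals had the lowest p of the list.
Igfals promoter: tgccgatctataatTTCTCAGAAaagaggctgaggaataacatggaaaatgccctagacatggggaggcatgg
The same letters, searched on both strands in the 250 bases before the start, occurred in 7.02% of 32851 promoters, in 7.53% of tested genes, in 8.19% of the 281 genes higher in KO that had a promoter and in 8.13% of the 455 lower. These shares lie close together, and a match describes the letters only.

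Among the 10 largest rises by the naming rule were Cyp4a12b, a male-biased cytochrome P450, and the major urinary protein genes Mup14, Mup12 and Mup8. Mup14 lost its call when any 1 library other than WT 1 or KO 1 was left out (edgeR adjusted p up to 0.0822). Mup12 lost its call without WT 2, WT 3 or WT 4 (edgeR adjusted p up to 0.0627). Mup8 did so without WT 2, WT 3, WT 4 or KO 4 (edgeR adjusted p up to 0.061). Cyp4a12b stood at 11.2, 2.56, 3.04, 6.81 and 6.41 CPM in WT 1 to WT 5 and 32.7, 46.9, 53.7, 47.7 and 81.7 CPM in KO 1 to KO 5, without overlap, and rose by 3.14 (SE 0.54, edgeR adjusted p = 0.00299). Serpine2, a secreted protease inhibitor also called protease nexin 1, stood at 19.7, 8.34, 7.92, 10.1 and 13.2 CPM in WT 1 to WT 5 and 50.7, 49.1, 45.7, 46.8 and 46.7 CPM in KO 1 to KO 5. The KO libraries lay close together and far above the highest WT library, and Serpine2 rose by 2.01 (SE 0.30, edgeR adjusted p = 0.00123). Obp2a, an odorant-binding lipocalin, rose by 1.89 (SE 0.39, edgeR adjusted p = 0.00898), and Ces4a, a carboxylesterase, by 2.24 (SE 0.49, edgeR adjusted p = 0.0121). Rsph3b, a radial spoke protein gene of cilia, stood at 33.9, 55.1, 113, 62.8 and 61.2 CPM in WT 1 to WT 5 and 199, 295, 209.7, 188 and 207 CPM in KO 1 to KO 5 and rose by 1.75 (SE 0.23, edgeR adjusted p = 0.000548). Rsph3b has a near copy, Rsph3a, so the division of reads between the pair is uncertain.

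The clock genes that edgeR called were Dbp, an output of the loop, and Ciart, of its negative arm. The share of all genes higher in KO was 2.56%. The activators encoded by Arntl and Clock drive the output genes through E-boxes, and the outputs peak late in the day. Of 14 tested genes of the negative arm and outputs 2 rose and none fell (median 0.28), and of 6 genes of the positive arm none was called by edgeR (median -0.29), with 3 at an unadjusted p below 0.05, and DESeq2 called 0 higher and 1 lower. Dbp, a factor that transmits the rhythm to metabolic genes, stood at 108, 103, 58.3, 77.4 and 79.8 CPM in WT 1 to WT 5 and 130.5, 267, 166, 173 and 172 CPM in KO 1 to KO 5. Every KO library was above every WT library, and Dbp rose by 1.09 (SE 0.24, edgeR adjusted p = 0.0123). Ciart, a repressor of the Clock-Arntl complex, stood at 31.2, 26.6, 25.5, 22.8 and 23.6 CPM in WT 1 to WT 5 and 32, 33.8, 50.4, 33.7 and 56.4 CPM in KO 1 to KO 5 and rose by 0.67 (SE 0.17, edgeR adjusted p = 0.0244), but lost its call without WT 4, KO 3 or KO 5 (edgeR adjusted p up to 0.0719). Per1 (0.31), Per2 (0.11), Nr1d1 (0.79) and Arntl (-0.99, edgeR adjusted p = 0.0568) did not pass. The hour of tissue collection is not in the labels, and its part in these values was not tested. The Ciart promoter holds an E-box, CACGTG, 116 bases before the start, shown in capitals from RefSeq (GRCm38.p6, chr3:95882289-95882394, minus strand).
Ciart promoter: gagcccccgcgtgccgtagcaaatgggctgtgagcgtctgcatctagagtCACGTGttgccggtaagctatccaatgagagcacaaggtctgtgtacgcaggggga
Among 12 negative-arm and output genes with a listed promoter, 4 held that E-box (Bhlhe41, Ciart, Per1 and Tef). The shares were 6.02% of all promoters and 9.41% of tested genes. Among genes higher in KO 9.25% held it and among genes lower 9.01%, both close to the share of tested genes. The D-box TTATGTAA, which the Dbp product binds, occurred in 0.682% of tested genes, 0.712% of genes higher and 1.1% of genes lower in KO.

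Dusp8 and several early-response genes were lower in KO. Dusp8, a phosphatase of the stress kinases JNK and p38, stood at 1.97, 7.23, 9.55, 7.97 and 9.41 CPM in WT 1 to WT 5 and 1.01, 0.37, 0.642, 0.829 and 0.559 CPM in KO 1 to KO 5. WT 1 was the nearest WT library, still above every KO library, and Dusp8 fell by 3.40 (SE 0.42, edgeR adjusted p = 0.000332). The KO libraries lay close to or below the count filter for Dusp8, so its call is no support. Of 23 immediate-early and AP-1 genes 7 fell and 1 rose, beside 4.19% and 2.56% of all genes, with a median of -0.41. Ier5 fell by 0.73 (SE 0.14, edgeR adjusted p = 0.00714), the antiproliferative gene Btg2 by 0.95 (SE 0.19, edgeR adjusted p = 0.00806) and the zinc finger factor Klf6 by 1.49 (SE 0.32, edgeR adjusted p = 0.0118). These 3 kept their calls whichever library was left out, whereas the count of 7 was 3 without WT 2 or KO 4 and 4 without WT 5, KO 2 or KO 5. Fos (0.09), Jun (0.53), Junb (0.41) and Egr1 (-0.41), the most rapidly induced members, did not pass, and Ier2 rose (0.76), a call it lost without WT 4.

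Cell cycle and inflammatory genes were mostly on the lower side. Among all genes tested 4.19% fell and 2.56% rose. Of 25 genes of the p53 response and cell cycle 4 fell and none rose (median -0.40). Cdkn1a, the inhibitor of cyclin-dependent kinases, stood at 52.6, 48.2, 131, 114 and 75.9 CPM in WT 1 to WT 5 and 14.8, 6.2, 12.8, 14.2 and 13.8 CPM in KO 1 to KO 5, and Ccnd1, the cyclin of the G1 phase, at 21.8, 44.8, 32.6, 28.3 and 31.6 CPM in WT 1 to WT 5 and 9.53, 12.8, 12.7, 12.7 and 10.4 CPM in KO 1 to KO 5. Neither pair of groups overlapped, with Cdkn1a at -2.77 and Ccnd1 at -1.45 on the log2 scale. Other p53 targets, Mdm2 (0.02), Bax (0.16) and Ccng1 (-0.45), and the proliferation genes Mki67 (-0.40) and Top2a (-0.65) did not pass. Of 26 acute phase and inflammation genes 4 fell and none rose (median -0.65). Orm3, an acute phase orosomucoid, stood at 4.66, 8.5, 51.7, 28.1 and 30.2 CPM in WT 1 to WT 5 and 2.47, 4.11, 1.97, 2.9 and 2.95 CPM in KO 1 to KO 5 and fell by 3.09 (SE 0.61, edgeR adjusted p = 0.00683). Saa1 and Saa2 stood at 772.1 and 393.2 CPM in WT and 109.2 and 49.46 in KO, differences of -2.82 and -2.99 that did not pass (edgeR adjusted p = 0.0670 and 0.117). Stat3, which transmits interleukin 6 to these genes, fell by 0.61 and lost its call without KO 2 (edgeR adjusted p = 0.0517). Of 24 interferon and antigen presentation genes 2 rose and none fell (median 0.27): Tap1, the peptide transporter of class I presentation, by 0.64 (SE 0.12, edgeR adjusted p = 0.00416), and Irf7, an interferon response factor, which lost its call without WT 2, WT 4, WT 5, KO 2 or KO 5 (edgeR adjusted p up to 0.0732).

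In glucose and insulin genes, the setting in which TXNIP is best known, most calls were on the lower side. Among all genes tested 2.56% rose and 4.19% fell. Of 29 genes of glucose uptake, glycolysis and pyruvate entry 1 rose and 2 fell (median -0.20), of 22 of gluconeogenesis and glycogen 4 fell (median -0.07), and of 25 of insulin signalling 2 fell (median 0.10). Slc2a2, the hepatocyte glucose transporter, stood at 311.9 CPM in WT and 286.9 in KO and pyruvate kinase (Pklr) at 276.6 and 286.1, and neither passed. Pck1 (0.37), G6pc (0.13), Insr (0.08), Irs1 (0.10), Irs2 (0.14) and Foxo1 (0.14) did not pass either. Pgm2, a phosphopentomutase, stood at 6.68, 5.63, 4.78, 4.68 and 6.21 CPM in WT 1 to WT 5 and 3.93, 2.45, 3.21, 2.33 and 2.95 CPM in KO 1 to KO 5 and fell by 0.91 (SE 0.18, edgeR adjusted p = 0.00806). Igfbp1, which insulin lowers, was lower (log2 difference -1.20, SE 0.27, edgeR adjusted p = 0.0142). Slc2a5, the fructose transporter, rose by 1.15 (SE 0.28, edgeR adjusted p = 0.0192) and lost its call without WT 4 or KO 2 (edgeR adjusted p up to 0.0535). The glycogen-targeting subunit Ppp1r3g lost its call when any 1 library other than WT 1 was left out (edgeR adjusted p up to 0.0898), and the gluconeogenesis and glycogen count was then 2. Hexokinase 1 (Hk1) lost its call when any 1 library other than WT 1, KO 2 or KO 3 was left out (edgeR adjusted p up to 0.0912), and Tbc1d1, a regulator of glucose transporter traffic, when any 1 library other than WT 1, WT 4 or KO 5 was left out (edgeR adjusted p up to 0.102).

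Of 22 retinoid and one-carbon genes 5 fell and none rose (median -0.36): Mthfd1l, the mitochondrial formate-producing enzyme, stood at 4.09, 4.43, 7.05, 6.7 and 4.43 CPM in WT 1 to WT 5 and 1.36, 1.25, 1.38, 2.38 and 2.49 CPM in KO 1 to KO 5 and fell by 1.59 (SE 0.26, edgeR adjusted p = 0.00237). Odc1, which opens polyamine synthesis, fell by 0.54 (SE 0.10, edgeR adjusted p = 0.00431). Of 15 periportal genes 4 fell and none rose (median -0.24), and of 17 pericentral genes 3 rose and 1 fell (median 0.39). Among all genes tested 4.19% fell and 2.56% rose. Ctsc, a lysosomal dipeptidyl peptidase of periportal hepatocytes, stood at 63.7, 56.9, 52.5, 54.7 and 48 CPM in WT 1 to WT 5 and 26.9, 24, 27.8, 27.4 and 28.5 CPM in KO 1 to KO 5. Both groups were narrow and lay far apart, and Ctsc fell by 1.03 (SE 0.13, edgeR adjusted p = 0.000332). The zonation markers Cps1 (0.07), Ass1 (-0.08), Glul (-0.10) and Axin2 (0.23) did not pass. Slc1a4, a neutral amino acid transporter, fell by 1.34 (SE 0.25, edgeR adjusted p = 0.0052), while Slc1a2, a glutamate transporter of pericentral cells, rose by 0.70 (SE 0.13, edgeR adjusted p = 0.00574). In the urea cycle and amino acid catabolism list no gene of 24 was called by edgeR, with 2 at an unadjusted p below 0.05, and DESeq2 called 0 higher and 1 lower. In the unfolded protein list it was no gene of 25, with 6 at an unadjusted p below 0.05, and DESeq2 called 0 higher and 2 lower. Of 25 nuclear oxidative phosphorylation genes only Nnt was called, and the median was 0.03. Nnt is the mitochondrial transhydrogenase that makes NADPH and is deleted in part in 1 common substrain. It stood at 49.5, 63.4, 55, 66.2 and 56.1 CPM in WT 1 to WT 5 and 137, 119, 111, 119 and 114 CPM in KO 1 to KO 5 and rose by 1.05 (SE 0.14, edgeR adjusted p = 0.000724); the substrain of neither group is in the labels, and its part was not tested. Of 17 iron genes 3 fell (median -0.14), among them Id1, a target of BMP signalling, by 0.83 (SE 0.18, edgeR adjusted p = 0.0118), while Hamp (-0.49) did not pass. Of 28 complement and coagulation genes 2 rose and 2 fell (median -0.03). Cfi, the complement factor I protease, fell by 0.66 (SE 0.15, edgeR adjusted p = 0.0155) and kept its call whichever library was left out. C6, a part of the membrane attack complex, lost its call when any 1 library other than WT 1, WT 5 or KO 1 was left out (edgeR adjusted p up to 0.079), and the clotting factor F11 when any 1 library other than WT 1 or KO 1 was left out (edgeR adjusted p up to 0.0971). Of 16 heat shock and cold-inducible genes 1, the cochaperone Dnajb1, rose and none fell (median 0.06), and it lost its call when any 1 library other than WT 1 or WT 2 was left out (edgeR adjusted p up to 0.0959).

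**Figure D3:**
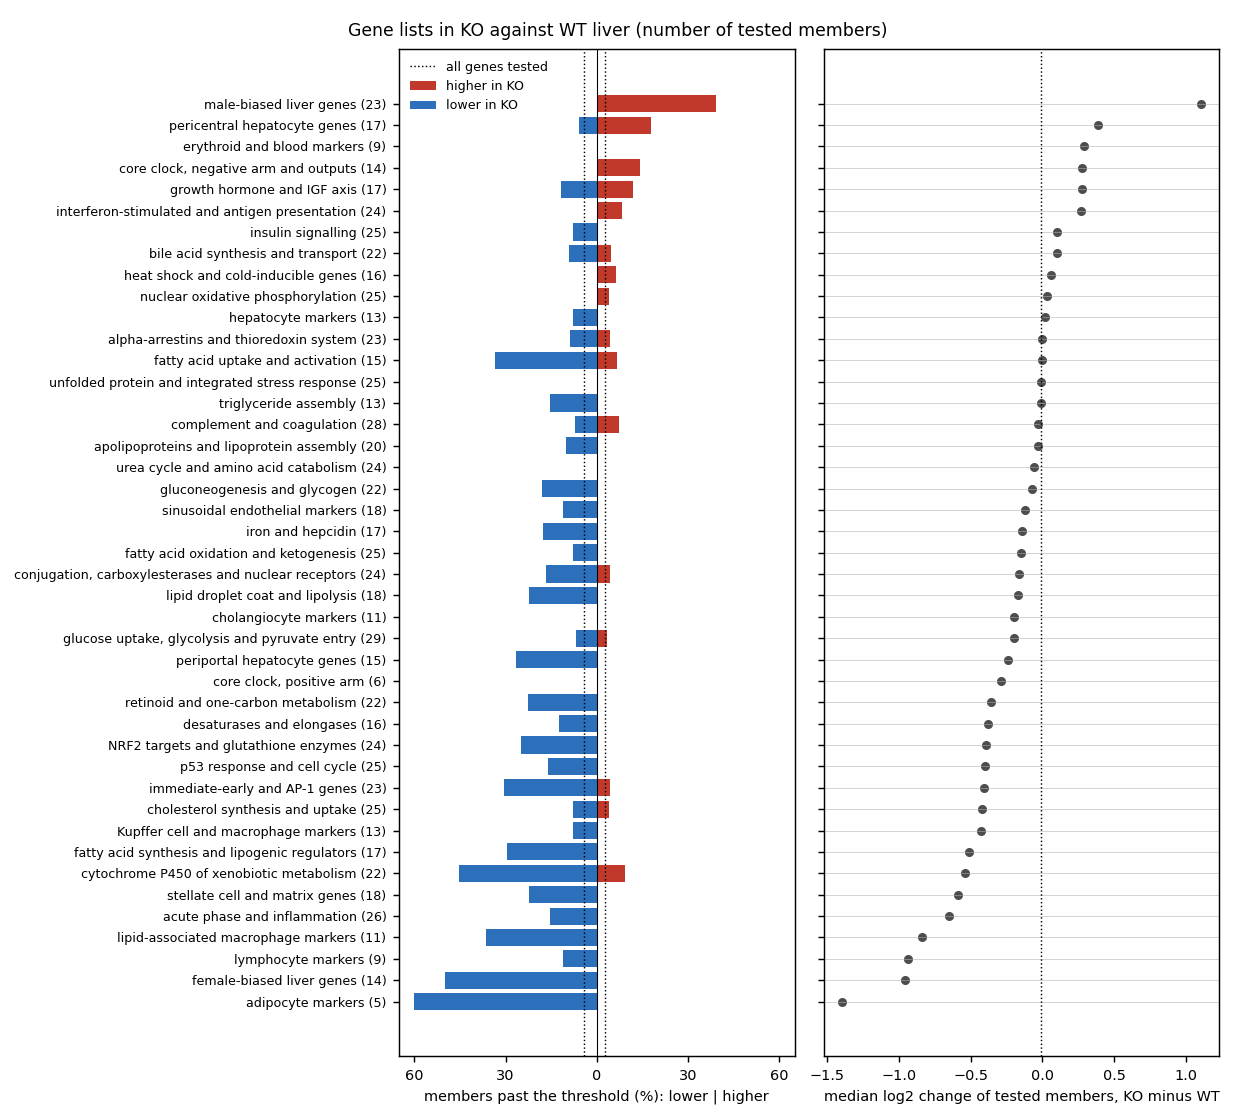
Bars give the percent of each list's tested members called lower (left) or higher (right) in KO, with the shares of all genes dotted, and points on the right give the median log2 change of the list. Male-biased genes lay highest, with a median of 1.11, and adipocyte and female-biased genes lowest, at -1.40 and -0.96.

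Markers of other liver cells also differed, and in bulk RNA fewer cells of a type and less RNA per cell cannot be told apart. Of 13 tested hepatocyte markers only Alb was called, lower, and it lost that call when any 1 library other than WT 1, WT 5 or KO 2 was left out (edgeR adjusted p up to 0.0945). The summed hepatocyte markers were 114800 to 139300 CPM in WT and 81920 to 111500 in KO, while the median log2 difference was 0.02, and Alb was the largest term of that sum. All 13 Kupffer cell and macrophage markers had negative differences (median -0.43). Their sum was 289.5 to 481.7 CPM in WT and 189.8 to 372.7 in KO, and only Cx3cr1, a chemokine receptor, was called, at 1.55 CPM in WT and 0.568 in KO (-1.44, SE 0.32, edgeR adjusted p = 0.0134). The KO level of Cx3cr1 was close to or below the count filter, so that call is no support. Clec4f (-0.05) and Cd5l (-0.18), which define resident Kupffer cells, did not pass. All 11 lipid-associated macrophage markers were negative too (median -0.84), with 4 called, and their sum was 361.7 to 530.7 CPM in WT and 330.5 to 412.9 in KO. That count, beside 4.19% of all genes called lower, was 2 without WT 3, WT 4, KO 1 or KO 5. Trem2 kept its call whichever library was left out. Gpnmb did so too, but at 0.203 to 0.655 CPM in KO its kept call is no support, as stated above.

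Of 18 stellate cell and matrix genes (median -0.59) 4 fell and none rose: the basement membrane collagen Col4a1 (-1.06), the matrix protein Sparc (-0.71), the fibrillar collagen Col3a1 (-1.18) and the crosslinking enzyme Loxl2 (-0.88). Their summed level was 869.5 to 966.3 CPM in WT and 317.4 to 738.6 in KO, without overlap. The count of 4, beside 4.19% of all genes called lower, was 2 without WT 2, WT 3, WT 4, KO 3 or KO 5. It was 8 without WT 1. Col3a1 lost its call when any 1 library other than WT 1, WT 5, KO 2 or KO 4 was left out (edgeR adjusted p up to 0.0771), and Loxl2 when any 1 library other than WT 1 or KO 1 was left out (edgeR adjusted p up to 0.0833). Col1a1 (-0.61), Acta2 (-0.67), Des (5.72 CPM in WT and 5.71 in KO) and Lrat (-0.30) did not pass. Of 18 sinusoidal endothelial markers Pecam1 and Lyve1 fell while Stab1 (0.01), Stab2 (0.31) and Clec4g (0.03) did not pass (median -0.12). Their sums overlapped, 258.7 to 644.2 CPM in WT and 307.3 to 531.0 in KO. The B cell gene Ms4a1 was the lymphocyte marker called, and it lost that call when any 1 library other than WT 2 or WT 3 was left out (edgeR adjusted p up to 0.122). Lymphocyte markers summed to 21.68 to 146.0 CPM in WT and 13.67 to 44.57 in KO, and erythroid and blood markers to 676.1 to 2161 and 1398 to 3783. Adipocyte markers fell in 3 of 5 tested members, Fabp4, Cidec and Cfd, but Adipoq, Lep, Plin1 and Retn were too low to test, and the sum, 1601 to 2301 CPM in WT and 1390 to 1984 in KO, was mostly Car3, which did not pass. The part of these cell types in the falls of lipid, inflammatory and early-response genes was not tested.

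Single transcripts were called less often than genes. Of 32585 transcripts tested 58 were higher (0.178%) and 151 lower (0.463%), in 198 genes. Of these 209 transcripts 194 belonged to a gene called in the same direction, 14 to a gene not called and 1, Nudt14-201, to a gene called in the other direction. The transcript count was 66 without KO 5, 69 without KO 2, 70 without KO 3, 82 without WT 4, 83 without KO 4, 110 without WT 2, 125 without KO 1, 131 without WT 5 and 136 without WT 3. Only 184 of 935 called genes with a tested transcript had a called transcript.

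The share of a gene's counts that each of its transcripts takes was tested in 7974 genes with edgeR's diffSpliceDGE and again with limma's diffSplice, both with Simes adjustment. edgeR called 29 genes (0.364%), limma 23 (0.288%) and both methods 5 (0.0627%): Pik3r1, Fbxw11, Rsph3b, Nudt14 and March8. The 29 edgeR calls included genes with very low counts of the shifted form. On simulated counts the edgeR method made more false than true calls, so the genes described first are those that limma also called. The limma method was not run on simulated counts, so its own rate of false calls is not known. The edgeR count was 72 without WT 3, 56 without KO 1, 51 without WT 2 and 47 without WT 5. March8 overlapped between groups and lost its call without WT 1, WT 4, KO 2 or KO 5.

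Pik3r1, which encodes the regulatory subunit of phosphoinositide 3-kinase and carries the insulin signal, had less of a short form in KO. Pik3r1-201 (454 amino acids), which starts 75587 bases downstream of the full-length Pik3r1-202 (724 amino acids) on the minus strand of chromosome 13, held 21.9, 27.8, 6.41, 31.5 and 39.2% of the counts in WT 1 to WT 5. In KO 1 to KO 5 it held 4.94, 0, 4.83, 2.1 and 0%. The groups did not overlap, and WT 3 was the nearest WT library. The full-length form had a mean share of 70.2% in WT and 94.4% in KO, with overlap, while the gene's log2 difference was -0.27, SE 0.12, edgeR adjusted p = 0.165. The shift was called by edgeR (adjusted p = 0.000424) and limma (adjusted p = 0.0138). It missed the threshold when only transcripts with at least 5% of a gene were kept (edgeR adjusted p = 0.0501), and Pik3r1-201 alone did not pass among transcripts (edgeR adjusted p = 0.0849). The forms differ in how their coding sequence begins. The end of each form's own coding start is in capitals and the first 30 shared coding bases in lower case, from GENCODE M21 (GRCm38).
Pik3r1-201: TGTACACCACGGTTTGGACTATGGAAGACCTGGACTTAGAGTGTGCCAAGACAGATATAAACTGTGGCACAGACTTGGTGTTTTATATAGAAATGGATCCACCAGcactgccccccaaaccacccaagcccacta
Pik3r1-202: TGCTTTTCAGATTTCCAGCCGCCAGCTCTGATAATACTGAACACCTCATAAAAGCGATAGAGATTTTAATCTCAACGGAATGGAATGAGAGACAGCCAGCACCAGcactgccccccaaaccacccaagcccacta
Pik3r1-201 has 106 coding bases of its own and Pik3r1-202 has 916, which hold the SH3 and BCR homology domains that the short form lacks.

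Fbxw11, an F-box protein that targets beta-catenin and other substrates for ubiquitination, had a form that was counted in all 5 KO libraries and in no WT library. Fbxw11-201 (563 amino acids) had 0 counts in every WT library and 22, 16, 10.5, 18.4 and 13.2% of the gene's counts in KO 1 to KO 5, from 63 to 115 counts a library. Fbxw11-202 (542 amino acids) had a mean share of 70.2% in WT and 47.8% in KO. These values are a description: the form passed the count filter through the libraries that hold it, so its calls are no support, and at a mean count of at least 50 it was not tested. The gene's total did not pass (log2 difference -0.30, SE 0.09, edgeR adjusted p = 0.0561). An estimate of 0 for 1 of several near-identical forms does not show that the form is absent. Fbxw11-201 differs from Fbxw11-202 by 63 coding bases, shown in capitals between the flanking bases.
Fbxw11-201: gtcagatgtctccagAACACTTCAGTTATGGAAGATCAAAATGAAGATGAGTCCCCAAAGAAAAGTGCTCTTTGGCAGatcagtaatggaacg

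Rsph3b-203, a form without an annotated coding sequence, held 52.5, 63.2, 83.7, 75.3 and 68.8% of the gene's counts in WT and 92.1, 94.1, 92.6, 90.1 and 93.1% in KO, in library order, without overlap. The shift was called by edgeR (adjusted p = 0.0104) and limma (adjusted p = 3.62e-05), but not in the fit of KO and WT alone (edgeR adjusted p = 0.154). Nudt14-201 (210 amino acids), a minor form of a nucleotide sugar hydrolase, held 3.46, 2.06, 4.18, 2.5 and 2.11% in WT and 0.416, 0.311, 0.103, 0.192 and 0.147% in KO. That is a change in 2 to 68 counts a library beside more than 1000 of Nudt14-202, and its edgeR call (adjusted p = 0.0359) held in 4 of 10 fits with 1 library left out.

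In 2 stress-linked genes limma called a shift that edgeR did not, both chosen here after their values were seen. Hsph1, a heat shock protein that exchanges nucleotide on HSP70, has a shorter form. Hsph1-201 (814 amino acids) held 14.8, 22.7, 16.4, 25.6 and 10.6% in WT and 25.8, 45, 37.9, 35.8 and 42.3% in KO (limma adjusted p = 0.0119, edgeR adjusted p = 0.735). Hsph1-201 rose as a transcript by 1.60 on the log2 scale (edgeR adjusted p = 0.0147), while Hsph1-211 (858 amino acids) had a log2 difference of 0. The coding stretch of 132 bases that Hsph1-211 has and Hsph1-201 lacks is in capitals.
Hsph1-211: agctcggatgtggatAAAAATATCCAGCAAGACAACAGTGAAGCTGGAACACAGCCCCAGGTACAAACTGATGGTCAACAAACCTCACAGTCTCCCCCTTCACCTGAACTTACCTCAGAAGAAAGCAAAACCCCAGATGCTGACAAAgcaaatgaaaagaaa
Rcan1, an inhibitor of calcineurin, has a calcium-induced short form with its own start, 66069 bases from that of the long form on chromosome 16. The short form Rcan1-201 (198 amino acids) held 74.2, 78.2, 88.8, 78.2 and 67.9% in WT and 57.6, 36.8, 55, 36 and 74.4% in KO, with overlap. The long form Rcan1-202 (251 amino acids) held 24.9, 20.4, 11.2, 21.8 and 17.9% and 42.4, 63.2, 45, 64 and 25.6%, without overlap (limma adjusted p = 0.0148, edgeR adjusted p = 0.178). Rcan1-201 fell by 1.37 as a transcript (edgeR adjusted p = 0.0169), Rcan1-202 did not pass (0.48), and the gene fell by 0.80 (SE 0.14, edgeR adjusted p = 0.00346). The coding starts are shown as for Pik3r1, with own bases in capitals, all 87 of Rcan1-201 and the last ones of Rcan1-202.
Rcan1-201: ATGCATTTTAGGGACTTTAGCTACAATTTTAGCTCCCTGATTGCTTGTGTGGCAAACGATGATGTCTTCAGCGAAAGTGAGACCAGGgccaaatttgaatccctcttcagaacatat
Rcan1-202: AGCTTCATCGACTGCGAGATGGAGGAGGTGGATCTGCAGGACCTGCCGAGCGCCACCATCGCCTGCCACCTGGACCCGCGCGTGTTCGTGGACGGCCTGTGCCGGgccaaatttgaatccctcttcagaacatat

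**Figure D4:**
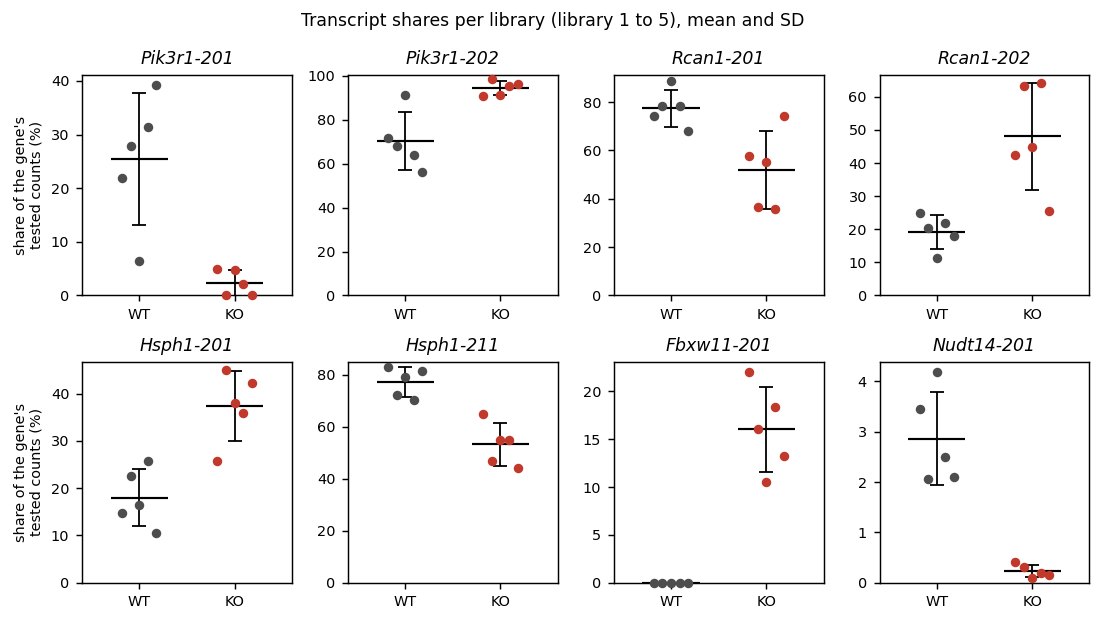
Each panel gives the percent of a gene's tested counts held by 1 transcript in the 5 WT (grey) and 5 KO (red) libraries, with the mean and SD. Pik3r1-201 and Nudt14-201 were lower in KO and Fbxw11-201, Hsph1-201 and Rcan1-202 higher without overlap, and Rcan1-201 overlapped.

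Classes of transcripts were compared by their share of each library. Retained-intron transcripts held 1.18% to 2.38% of matched counts in WT and 1.46% to 2.15% in KO (exact permutation p = 0.722, adjusted p = 0.722 over 6 classes). Pseudogene transcripts held 0.544% to 0.966% in WT and 0.776% to 0.920% in KO (exact permutation p = 0.0952, adjusted p = 0.571). Protein-coding, decay-targeted, processed and mitochondrial transcripts had exact permutation p of 0.254 to 0.563. No class passed the threshold, and the direction of the retained-intron difference, 0.0815 percentage points higher in KO, turned without WT 1, WT 4 or KO 5.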

How the data were processed

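Bulk liver RNA of 15 mouse libraries was measured, of which 5 KO and 5 WT libraries were compared. Values were deposited as estimated counts for each transcript, all of them whole numbers as the authors left them. The submitters' processing notes name Trimmomatic 0.39, kallisto 0.50.1, DESeq2 and mm10, and the transcript annotation behind the estimates was not given in the sources used here. Because kallisto splits ambiguous reads between transcripts, near-identical genes and forms are uncertain. The members and gene lists were chosen with earlier results of these data known.

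Transcripts were matched to GENCODE M21 (GRCm38) by identifier without version (114331 of 115911, 98.64%), and the 1580 unmatched ones, 0.366% to 0.459% of counts, were left out. Counts were summed to 35546 genes. All 15 libraries entered one edgeR 4.0.16 quasi-likelihood fit in R 4.3.3 (TMM, filterByExpr with a minimum count of 10 and total of 15, group means), with Benjamini-Hochberg adjustment at 0.05 over all 13916 genes or 32585 transcripts. CPM values carry the TMM factors. Transcript use was tested with diffSpliceDGE and, as an alternative, diffSplice of limma 3.58.1. Scripts were tested on simulated counts. Library totals were 18047577 to 23379940 counts, so counting error matters mainly in the lowest genes and forms.

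The rule for named genes took Txnip, the 10 largest rises and 10 largest falls among called genes with a mean of at least 5 CPM and no overlap, without predicted models and pseudogenes, for each list at most 3 called members by lowest p (at most 2 members where none was called), and for transcript use up to 12 genes with the largest share difference. List members named beyond it were chosen after their values were seen, and not every gene the rule picked is described. Same-numbered KO and WT libraries did not deviate together (correlations -0.141 to 0.219), so the numbers were not taken as pairs. The fit without WT 1 and KO 5 was added after seeing the data. Alternatives were RLE and upper-quartile factors, DESeq2 1.42.0, limma-voom, other count filters, KO and WT alone, a replicate block, a fold of 1.2, a clock index covariate and leaving out each library. Promoters came from RefSeq (GRCm38.p6), with 10559 tested symbols matched. Tables and figures used Python 3.11.15 with pandas 2.3.3 and matplotlib 3.10.9.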

Additional observations from a re-analysis of the deposited data

Results flagged for a closer look

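In 216 sets of 5 libraries, 14 had 1 library whose gap to its nearest neighbour exceeded 0.71 of the whole range, beside about 1 in 20 groups that chance gives. Gap and range were taken on log2 CPM, while the values below are plain CPM. WT 1 was that library in 4 sets: it was low for Cyp2a22 (3.52 CPM, others 19.92 to 37.93), Dusp8 (1.97, others 7.23 to 9.56), Apoa4 (667.8, others 2116 to 3016) and Acacb (41.3, others 107.2 to 150.5), in each case on the side of KO. KO 2 was high for Rsph3b (295.3 CPM, others 188.5 to 209.7) and low for Insig2 (56.3, others 71.6 to 77.9) and Cdkn1a (6.20, others 12.8 to 14.8). KO 5 was high for Susd4 (60.5 CPM, others 40.5 to 44.8) and Ppp1r3g (6.25, others 3.30 to 3.93) and low for Cyp2a22 (0.102, others 0.321 to 0.466). KO 4 was high for Apoa4 (487.8 CPM, others 179.6 to 232.6) and Srxn1 (35.8, others 27.6 to 29.1). WT 3 was low for Dnajb1 (16.4 CPM, others 22.1 to 23.9) and WT 4 for Lyve1 (16.6, others 24.6 to 27.9).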

How the results depend on the processing

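The count of 939 called genes was 1506 with DESeq2, 294 against a fold of 1.2, 175 with the clock index covariate and 581 without WT 1 and KO 5, and 521 to 928 with 1 library left out. It was 916 with RLE, 924 with upper-quartile factors, 851 with limma-voom, 723 without a count filter, 973 at a mean count of at least 50 and 1291 with KO and WT alone. The 209 transcripts became 1115 with DESeq2, 88 without a count filter, 441 at a mean count of at least 50, 66 against a fold of 1.2, 12 with the clock index, 83 without WT 1 and KO 5, and 66 to 204 with 1 library left out. The 29 genes with a shift in transcript use became 5 at a mean count of at least 50, 4 at a minimum share of 5%, 10 with KO and WT alone, and 24 to 72 with 1 library left out. The log2 difference of Txnip was -1.13 with the clock index, no longer called (edgeR adjusted p = 0.1049), and -1.25 to -0.99 with 1 library left out. The retained-intron difference of 0.0815 percentage points, -0.0559 to 0.2429 with 1 library left out, was reversed without WT 1 (-0.0559), WT 4 (-0.0442) and KO 5 (-0.0014). The cause was not tested for any of these, apart from fewer libraries or features tested. Same-numbered libraries share only a number. With the replicate number as a block 1046 genes, 128 transcripts and 15 shifts were called, and Txnip stood at -1.20 (edgeR adjusted p = 0.0118). Only KO 4 correlated best with the WT library of its own number. Depth limits mainly the transcript shares, where 1 form may hold under 100 counts.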

Other observations

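The genes named here were chosen after their values were seen and lie outside the lists above, except where stated, so they are values and support nothing. Several genes of vascular endothelium were lower in KO: the receptor Cd93 (-1.43, SE 0.18, edgeR adjusted p = 0.000414), thrombomodulin (Thbd, -1.46, SE 0.22, edgeR adjusted p = 0.00118), endothelial nitric oxide synthase (Nos3, -1.49, SE 0.23, edgeR adjusted p = 0.00169) and the repressor Bcl6b (-1.91, SE 0.25, edgeR adjusted p = 0.000537). Cd93 stood at 10.6, 15.1, 14.4, 9.41 and 11 CPM in WT 1 to WT 5 and 4.18, 3.84, 5.87, 4.77 and 3.81 CPM in KO 1 to KO 5, without overlap. The junction and adhesion genes Jam2 (-1.13), Mcam (-1.09) and Heg1 (-1.01) also passed in edgeR and kept their calls whichever library was left out. Esam (-0.70) lost its call without WT 2, WT 3 or KO 2 (edgeR adjusted p up to 0.0644). Other endothelial genes did not pass: Eng (-0.03), Cldn5 (-0.04), Robo4 (-0.22), Sox18 (-0.03) and Notch4 (-0.19). Fewer endothelial cells and less RNA per cell were not told apart.

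Some cytoskeletal genes also passed. The cytoplasmic actin Actg1 stood at 379, 668, 569, 618 and 674 CPM in WT 1 to WT 5 and 251, 251, 249.5, 219.8 and 214 CPM in KO 1 to KO 5 and fell by 1.30 (SE 0.17, edgeR adjusted p = 0.000548), and the tubulin Tubb2a fell by 2.76 (SE 0.41, edgeR adjusted p = 0.00115). The tropomyosin Tpm4 (-1.03) fell too, as did the annexin Anxa2 (-1.25) and the galectin Lgals1 (-1.22). Tuba1a (-0.88) lost its call without WT 1, WT 3, KO 1 or KO 3 (edgeR adjusted p up to 0.0632), and Actb (-0.37), Tpm1 (-0.52) and the listed Vim (-0.59) did not pass.

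A run of 3 genes close together on chromosome 4 was higher: the glucosylceramidase Gba2 (1.10, SE 0.15, edgeR adjusted p = 0.000724), the Golgi trafficking gene Rgp1 (0.71, SE 0.10, edgeR adjusted p = 0.000729) and the natriuretic peptide receptor Npr2 (0.97, SE 0.15, edgeR adjusted p = 0.00123). They lie between 43566928 and 43651244 in GRCm38, although their neighbours Creb3 (0.09) and Hint2 (0.41) did not pass. Papss1, which makes the sulfate donor for sulfotransferases, fell by 1.66 (SE 0.18, edgeR adjusted p = 0.000137), while the sulfotransferase Sult5a1 was higher (log2 difference 1.60, SE 0.22, edgeR adjusted p = 0.00069).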
